A study of Rattus norvegicus with 28 samples.

Results

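The calpain, caspase and Bcl-2 families of cell death genes were followed in the hippocampus of injured rats through 9 genes: Capn1, Capn2, Cast, Casp1, Casp4, Casp8, Bax, Bcl2 and Bcl2l1. They were found as the probes whose transcript accession belongs to one of these symbols, and they are 9 of the 15637 genes that the array's probes could be matched to. The 9 genes had 14 probes. The 5 groups were adult male Sprague-Dawley rats with a sham operation (Sham, 2 rats), with traumatic brain injury by parasagittal fluid percussion (TBI, 3 rats), and with the same injury followed 1 h later by an intraperitoneal injection of imipramine, Prozac (fluoxetine) or Zoloft (sertraline), all at 1 dose (TBI+Imipramine, TBI+Prozac and TBI+Zoloft, 3 rats each). All animals were anaesthetised, the hippocampus was taken 24 h after injury, and each rat had 1 one-colour Agilent array. No sham-operated rat had a drug, so a drug can be set against injury alone but not against its own uninjured control.

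Calpains are calcium-dependent proteases of the cytoplasm that cut cytoskeletal and membrane proteins when calcium floods an injured neuron. Capn1 and Capn2 encode the catalytic subunits of mu-calpain and m-calpain, Capns1 encodes the small subunit they share, and Cast encodes calpastatin, their inhibitor. Caspases are cysteine proteases made as inactive precursors. Casp8 starts apoptosis below death receptors, whereas Casp1 and Casp4 are inflammatory caspases: Casp1 is activated in inflammasomes and matures interleukin-1 beta and interleukin-18, and Casp4, the rat counterpart of mouse caspase-11, responds to bacterial lipopolysaccharide in the cytoplasm. Bax opens the outer mitochondrial membrane, and Bcl2 and Bcl2l1 (Bcl-xL) restrain it. These proteases are controlled largely after translation, by cleavage, calcium and inhibitors, so that a transcript level is not a protease activity.

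Between 14676 and 18196 of 30367 probes lay above background on the 14 arrays. Levels are log2 values on a scale where 0 is the 75th percentile of an array's detected probes, and levels of different probes cannot be set against each other. Testing was limited to the 17322 probes that all arrays of 1 group or more had detected above background. The arrays were on 3 slides. The 2 Sham arrays had a slide and a scan day of their own, so slide and injury cannot be told apart in any comparison with Sham. The 3 TBI arrays shared a slide with TBI+Prozac replicate 1, and the other 8 drug arrays shared another. All imipramine and Zoloft arrays were thus on another slide than TBI, and only the Prozac arrays were on both. Slide and drug cannot be told apart for imipramine or Zoloft against TBI, except through the Prozac arrays. The array with the fewest probes above background, 14676, was TBI replicate 1.

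Of the 14 probes, 10 passed this filter, and they covered 7 of the 9 genes, each above background on all 14 arrays. Casp8 was above background on 0 of 14 arrays, with a highest processed signal of 14.5. Bcl2 was above background on 0 of 14 arrays, with a highest signal of 12.7. Neither gene could be compared between groups, and the arrays set no more than an upper limit on them. A pair of the 4 Bcl2l1 probes was likewise too dim, with 1 of 14 arrays above background for A_44_P548065 and 0 of 14 for A_64_P054730. No member spot was saturated. Capn2, Cast and Bcl2l1 were each read by a pair of tested probes, Capn1, Casp1, Casp4 and Bax by 1 each.

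Capn2, Casp1 and Casp4 were higher in TBI than in Sham, and no other member passed the threshold. In limma's test with Benjamini-Hochberg adjustment over all 17322 probes, 4 of the 10 member probes were called in TBI against Sham, all 4 higher, where 16.6% of all tested probes were called and 8.3% were called higher. The median difference of the 10 probes was 0.37 on the log2 scale, and that of all tested probes was 0.0015. TBI and Sham values did not overlap for 9 of the 10 probes, 6 higher and 3 lower, which was so for 42.3% of all tested probes (20.9% higher and 21.4% lower). Before adjustment, 5 member probes had a p under 0.05, against 30.8% of all tested probes. Bulk tissue was measured, so fewer cells of a type and less RNA per cell cannot be told apart.

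**Figure D1:**
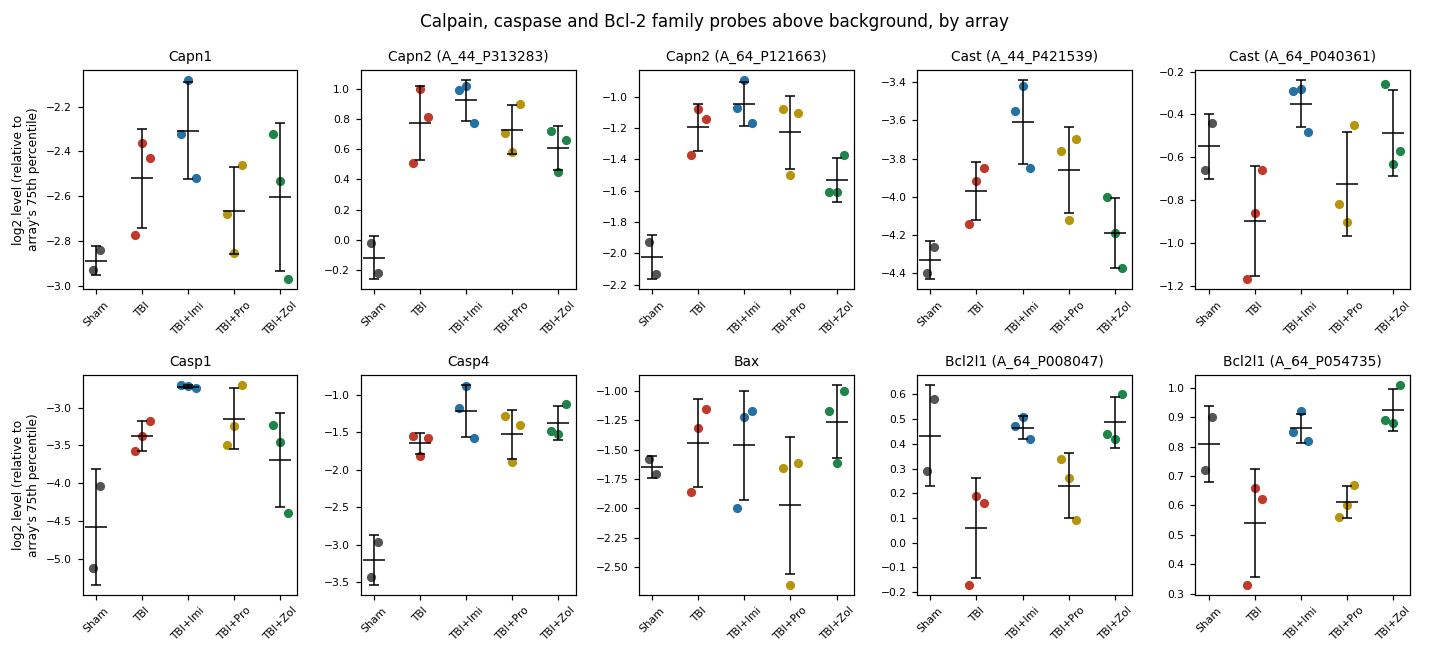
Log2 level of each tested member probe (vertical axis, relative to the 75th percentile of the array, with its own scale in each panel) by group, with 1 point per array, a horizontal line at the group mean and bars of 1 SD (n = 2 for Sham, 3 for the others). Capn2, Casp1 and Casp4 lie higher in TBI than in Sham, and the Sham values of Casp1 are far apart (-5.12 and -4.04).

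Capn2 rose on both of its probes. Its level on probe A_44_P313283 was -0.02 and -0.22 in the Sham arrays, and 0.51, 1.0 and 0.81 in the TBI arrays. All TBI arrays were above both Sham arrays. The difference was 0.89 (SE 0.17, 95% CI 0.52 to 1.26), which is 1.86-fold, with a limma adjusted p of 0.00462. The second probe, A_64_P121663, measured -1.93 and -2.13 in Sham and -1.37, -1.08 and -1.14 in TBI, again without overlap. It gave 0.83 (SE 0.17, limma adjusted p = 0.00599), and the difference lay within 1 SE of that of the first probe. Both calls rested on Sham replicate 2: without it the differences were 0.79 and 0.73 and the adjusted p-values 0.053 and 0.065.

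The promoters of Capn2 and Casp1 are shown because these genes rose together after injury. They are the 250 bases before the RefSeq transcript start, on the gene's own strand, in RefSeq's GRCr8 assembly, and 2 of the 3 genes that rose had an entry. The Capn2 promoter is chr13:96732626-96732875 on the minus strand and the Casp1 promoter is chr8:10872580-10872829 on the plus strand. Capitals mark matches to any of 3 motifs searched on both strands.
Capn2: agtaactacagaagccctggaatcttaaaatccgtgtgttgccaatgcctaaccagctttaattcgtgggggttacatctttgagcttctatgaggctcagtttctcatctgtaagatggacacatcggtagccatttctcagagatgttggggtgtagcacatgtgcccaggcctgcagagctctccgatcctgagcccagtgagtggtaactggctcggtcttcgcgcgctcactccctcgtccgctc
Casp1: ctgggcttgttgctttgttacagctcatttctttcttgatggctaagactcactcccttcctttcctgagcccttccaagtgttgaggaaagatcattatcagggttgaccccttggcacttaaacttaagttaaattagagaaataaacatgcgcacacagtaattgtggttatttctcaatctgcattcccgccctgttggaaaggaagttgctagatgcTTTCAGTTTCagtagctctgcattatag
The motifs were a kappaB motif (GGGNNTTTCC, found in 1.3% of the 33469 promoters of this length in the table), a STAT motif (TTCNNNGAA, 7.67%) and an interferon response motif (GAAANNGAAA, 3.41%). The Casp1 promoter held 1 match, to the interferon response motif on the opposite strand, ending 19 bases before the start. The Capn2 promoter held 0 matches to these letters. A match describes the letters and not a bound factor.

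Capn1 and the calpain inhibitor did not pass the test. Capn1 levels were -2.93 and -2.84 in Sham and -2.77, -2.36 and -2.43 in TBI, which do not overlap. The difference was 0.37 (SE 0.21, 95% CI -0.09 to 0.82, limma adjusted p = 0.259), and whether it differs from that of Capn2 was not tested. Cast gave opposite signs on its pair of probes: probe A_44_P421539 measured -4.40 and -4.26 in Sham against -4.14, -3.92 and -3.85 in TBI, a difference of 0.36 (limma adjusted p = 0.191), and probe A_64_P040361 measured -0.66 and -0.44 in Sham against -1.17, -0.86 and -0.66 in TBI, a difference of -0.35 (limma adjusted p = 0.237). No direction can therefore be given for calpastatin as a whole. Whether the probes read different transcripts of Cast was not tested.

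The inflammatory caspases had the largest differences among the tested member probes. Casp4 levels were -3.44 and -2.97 in Sham and -1.55, -1.81 and -1.58 in TBI, so that every TBI array was more than 1 log2 unit above both Sham arrays. Its difference of 1.56 (SE 0.24, 95% CI 1.03 to 2.08) is 2.94-fold, with a limma adjusted p of 0.00151, and it was called with every array left out in turn (adjusted p up to 0.025). Casp1 levels were -5.12 and -4.04 in Sham and -3.58, -3.37 and -3.18 in TBI. The groups did not overlap, but the Sham arrays differed from each other by about as much as Sham from TBI. The Casp1 difference was 1.2 (SE 0.36, 95% CI 0.42 to 1.99), 2.30-fold, with a limma adjusted p of 0.0402. It was 0.66 (adjusted p = 0.34) without Sham replicate 1, and the adjusted p was 0.051, 0.09 and 0.088 without TBI replicates 1, 2 and 3.

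Bax and the Bcl2l1 probes did not pass the test. Bax, the mitochondrial pore former, measured -1.58 and -1.71 in Sham and -1.86, -1.32 and -1.15 in TBI. These overlap, and the difference was 0.20 (95% CI -0.55 to 0.95, limma adjusted p = 0.737). Bcl2l1, which holds Bax in check, measured 0.29 and 0.58 in Sham and -0.17, 0.19 and 0.16 in TBI on probe A_64_P008047, with all TBI arrays below both Sham arrays. Its difference was -0.37 (95% CI -0.70 to -0.05, limma adjusted p = 0.114). Probe A_64_P054735 measured 0.72 and 0.90 in Sham and 0.33, 0.66 and 0.62 in TBI, also without overlap, with a difference of -0.27 (limma adjusted p = 0.189). Both Bcl2l1 probes were called lower when arrays were scaled to the 75th percentile of all probes (-0.40 and -0.29, adjusted p = 0.037 and 0.045), and under this scaling and under centring of arrays on their medians 7 of the 10 member probes were called.

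**Figure D2:**
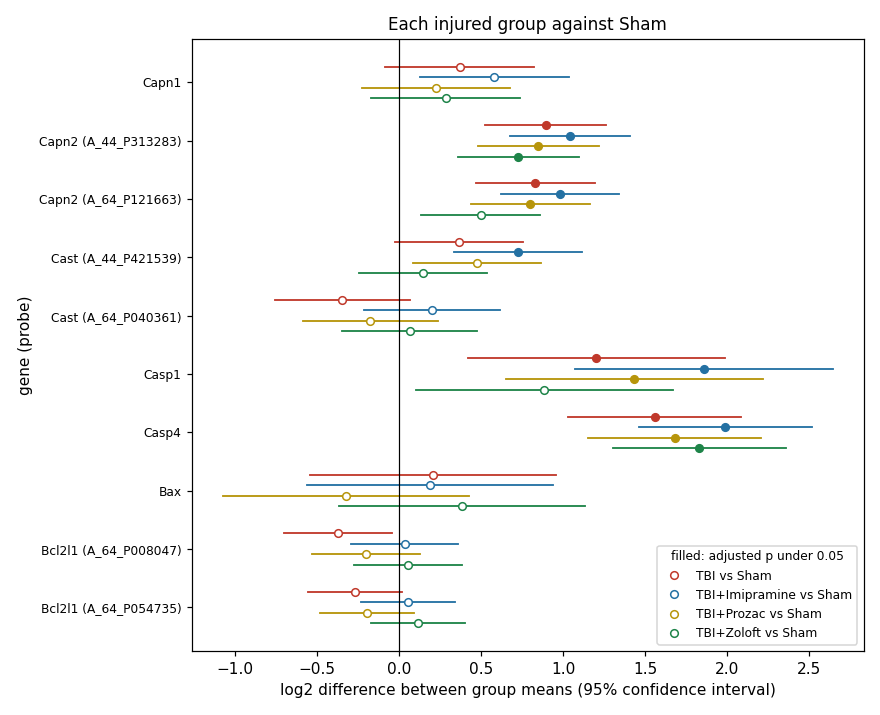
Log2 difference of each injured group from Sham (horizontal axis) for the 10 tested member probes, with 95% confidence intervals from limma and filled points for adjusted p under 0.05. The 4 comparisons share the same 2 Sham arrays. Casp4 is filled in all 4 and the Bax intervals all contain 0.

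The other genes of these pathways were counted from lists of their textbook members. Of 74 such genes outside the 9, 69 were on the array and 50 were tested. In TBI against Sham 12 of the 50 were called higher and 1 lower, with a median difference of 0.21. Of the 12, Birc3, Bcl2a1, Bid, Il1b and Il1rn passed the filter only through injured groups, where they were higher. Nothing is concluded from their calls. Of all tested probes 16.6% were called and 8.3% were called higher, and these shares stand beside each list count below. Of the calpain list, 0 of 6 tested genes were called, and Capns1, the shared small subunit, gave 0.10 (limma adjusted p = 0.695).

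Among the other caspases listed, 0 of 4 tested genes were called, and Casp9, the caspase of the apoptosome, gave -0.22 (limma adjusted p = 0.404). Of 10 tested genes of the apoptosome and the inhibitors of apoptosis, 2 were called, both inhibitors of the BIRC family. Birc5 (survivin) rose by 1.0 (limma adjusted p = 0.0337); the call was lost without Sham replicate 1 (0.80, adjusted p = 0.21) or 2 (1.21, adjusted p = 0.073) and without TBI replicate 1 (1.05, adjusted p = 0.05) or 2 (0.91, adjusted p = 0.099). Birc3 was above background on neither Sham array and on 2 of 3 TBI arrays, and was at least 2.01-fold higher in TBI (limma adjusted p = 0.0103, and 0.066 and 0.061 without Sham replicates 1 and 2). An at-least fold sets the mean of the brighter group against the levels of the group not above background. Levels under the lowest detected level of any probe on the array were raised to it. That floor belongs to the array and not to the probe. The adjusted p is that of the difference without the floor. The TBI mean of Birc3 includes the array not above background. With the normexp background correction, which models the local background and adds a fixed offset to every signal, Birc3 gave 0.13 (adjusted p = 0.63) and Birc5 0.44 (adjusted p = 0.1), so both calls were lost and the bound on Birc3 was not reached.

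**Figure D3:**
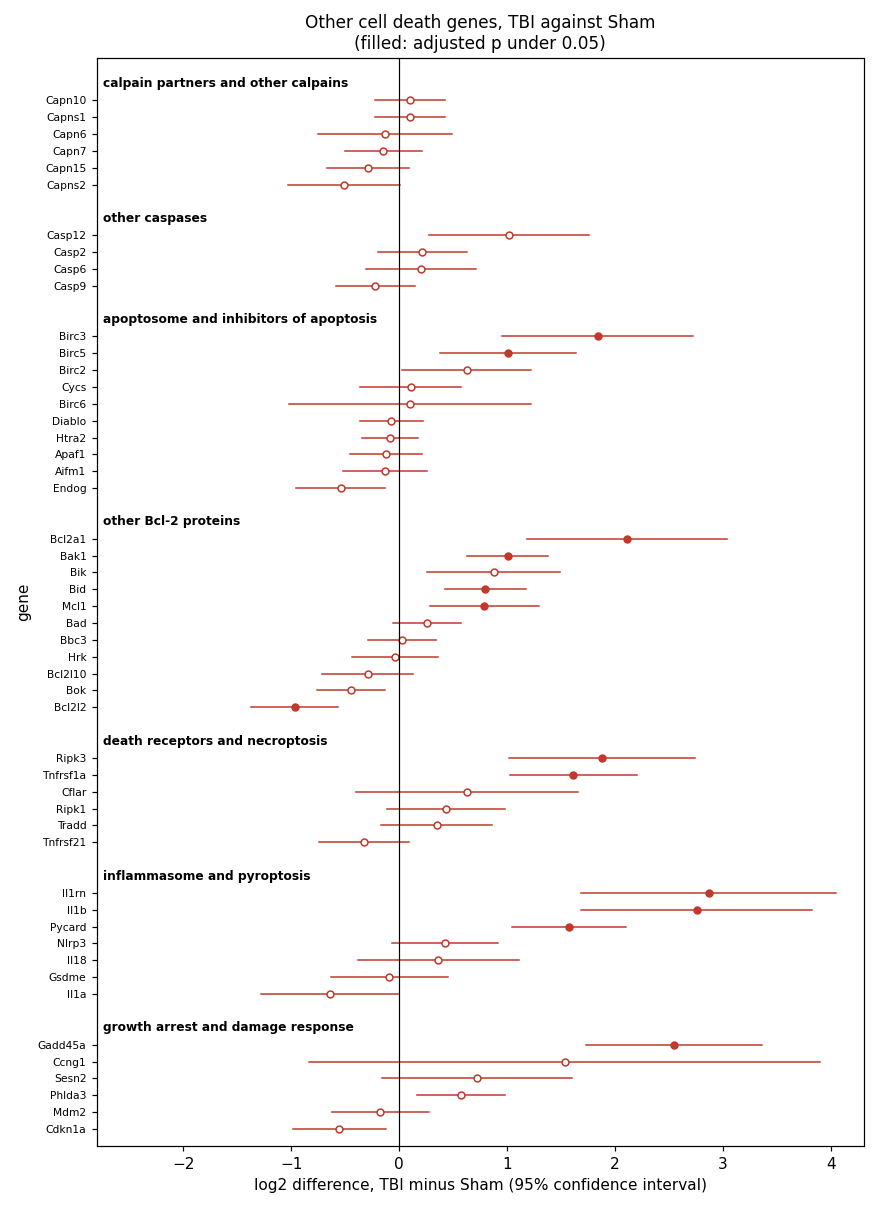
Log2 difference between TBI and Sham (horizontal axis) for the 50 tested pathway genes outside the 9 members, grouped by list, with 95% confidence intervals and filled points for adjusted p under 0.05. There are 12 filled points to the right of 0 and 1 to the left. For Birc3, Bcl2a1, Bid, Il1b and Il1rn no Sham array was above background, so their plotted values rest on unmeasured Sham levels.

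Of 11 other Bcl-2 proteins tested, 4 were called higher and 1 lower. Bak1, which like Bax opens the mitochondrial membrane, rose by 1.0 (SE 0.17, limma adjusted p = 0.00261). Bcl2l2 (Bcl-w), a protective member, fell by 0.97 (limma adjusted p = 0.0049). Bcl2a1, a protective member of blood-derived cells, was at least 1.62-fold higher and Bid, which links caspase-8 to mitochondria, at least 1.74-fold higher, with all 3 TBI arrays and neither Sham array above background for either (limma adjusted p = 0.00623 and 0.00919). Without Sham replicate 1 their adjusted p-values were 0.07 and 0.067, and without Sham replicate 2 that of Bid was 0.054. Mcl1, another protective member, rose by 0.79 (limma adjusted p = 0.0365), and its call was lost without Sham replicate 1 (0.94, adjusted p = 0.082), Sham replicate 2 (0.64, adjusted p = 0.24), TBI replicate 2 (0.72, adjusted p = 0.11) or TBI replicate 3 (0.72, adjusted p = 0.081). With normexp the differences were 0.18 for Bcl2a1 (adjusted p = 0.51), 0.08 for Bid (adjusted p = 0.69) and 0.39 for Mcl1 (adjusted p = 0.14), so these 3 calls were lost and the bounds on Bcl2a1 and Bid were not reached. Bak1, a promoting member, rose and Bcl2l2, a protective member, fell, with calls kept under 10 other processing settings and with each array left out. The calls of the protective members Bcl2a1 and Mcl1, and that of Bid, were not kept in this way. No shift of the list between promoting and protective members is concluded.

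Some genes that act around the inflammatory caspases and below death receptors were also called higher. Of 7 tested inflammasome genes 3 were called, all higher: Pycard (ASC), the adaptor that recruits Casp1, rose by 1.57 (SE 0.24, limma adjusted p = 0.00144), Il1b, a Casp1 substrate, was at least 4.03-fold higher (limma adjusted p = 0.00328), and Il1rn, the receptor antagonist of interleukin-1, was at least 7.11-fold higher (limma adjusted p = 0.00451). Neither Sham array was above background for Il1b and Il1rn, and all 3 TBI arrays were. Both genes passed the filter only through injured groups, so nothing is concluded from their calls. With normexp Il1b gave 0.67 and lost its call (adjusted p = 0.11), Il1rn gave 1.17 and kept it (adjusted p = 0.043), and neither reached its bound. Of 6 tested death receptor and necroptosis genes 2 were called. Tnfrsf1a, the main receptor for tumour necrosis factor, rose by 1.61 (limma adjusted p = 0.00226), and Ripk3, a kinase of necroptosis, rose by 1.88 (limma adjusted p = 0.00779; 1.01 and 0.07 without Sham replicate 1).

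Of 8 tested genes of growth arrest and the damage response, a list that includes Bax, 1 was called. Gadd45a, a growth arrest gene, rose by 2.55 (SE 0.38, limma adjusted p = 0.00113).

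**Figure D4:**
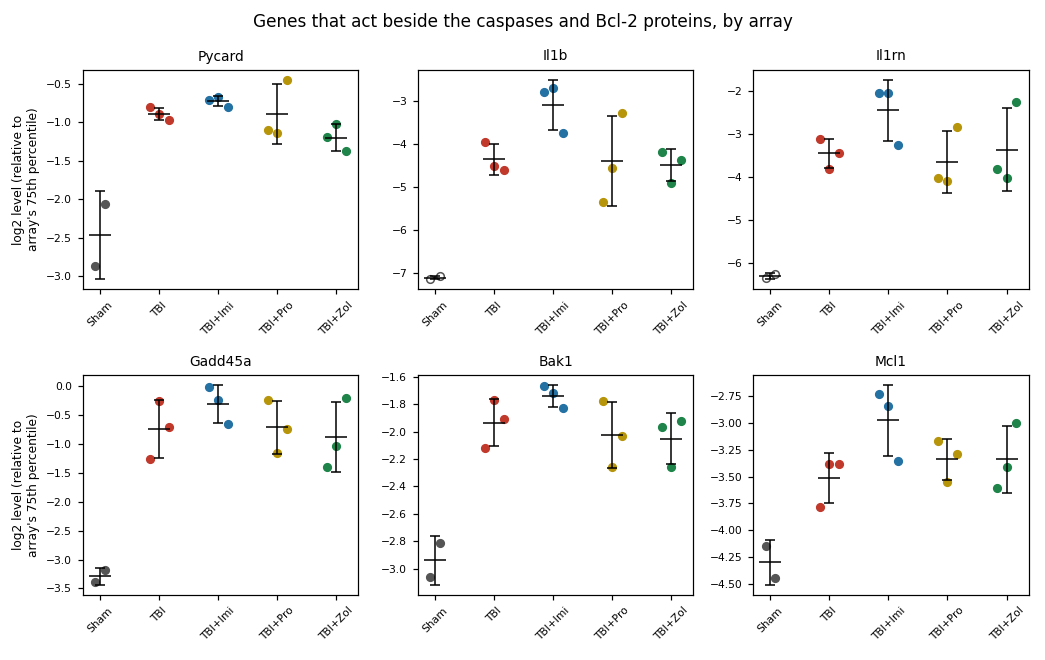
Log2 level of 6 pathway genes by group (vertical axis, relative to the 75th percentile of the array, own scale in each panel), with 1 point per array, open where the probe was not above background, a line at the group mean and bars of 1 SD (n = 2 for Sham, 3 for the others). The Sham points of Il1b and Il1rn are open, and the TBI points of all 6 genes lie above the Sham points.

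Markers of other cell types moved in the same comparison, in which 16.6% of all tested probes were called and 8.3% were called higher. Of 12 microglia and macrophage markers, 5 were called higher in TBI and 0 lower, and all 12 were above background. Their summed level, in units of the array's 75th percentile on a linear scale, was 13.6 to 14.8 in Sham, 20.5 to 27.8 in TBI, 23.8 to 26.1 in TBI+Imipramine, 18.8 to 24.4 in TBI+Prozac and 23.2 to 24.5 in TBI+Zoloft. The calls of Itgam, Cd68 and C1qb were each lost for 3 of 5 arrays left out singly and under 2 of 10 other processing settings. Those of Ptprc and Tyrobp were each lost for 1 of 5 arrays. Of 5 neutrophil markers on the array, S100a8 and S100a9 were called higher, the first not without Sham replicate 1 or 2 (limma adjusted p = 0.05 and 0.065), and Elane, Ngp and Mmp8 were above background on no array. The neutrophil sum was 0.0726 to 0.0747 in Sham and 0.369 to 2.68 in TBI. Of 10 neuronal markers Syt1 was called lower (-0.67, limma adjusted p = 0.0293, and 0.16, 0.099 and 0.051 without Sham replicate 1, Sham replicate 2 and TBI replicate 1) and 0 higher, with sums of 20.4 to 22.2 in Sham and 15.2 to 22.5 in TBI. Of 7 astrocyte markers Gfap was called higher (1.88, limma adjusted p = 0.0142), with sums of 44.1 to 44.2 in Sham and 29.9 to 49.4 in TBI. Of 4 tested endothelial markers Cldn5 was called higher (0.63, limma adjusted p = 0.0118), and the sum was 0.742 to 0.756 in Sham and 1.1 to 1.25 in TBI, without overlap. Of 6 oligodendrocyte markers Mobp was called lower (-1.33, limma adjusted p = 0.0334), with sums of 77.7 to 92.3 in Sham and 46.7 to 77.5 in TBI. Of the markers of blood (4 tested), choroid plexus (2) and hippocampal subfields (5), 0 were called. Tek (endothelial) and Prox1 (subfields) were above background on no array. The calls of Gfap, Cldn5 and Mobp were lost without Sham replicate 1 (adjusted p = 0.13, 0.055 and 0.06), those of Cldn5 and Mobp without Sham replicate 2 (adjusted p = 0.093 and 0.25), that of Gfap without TBI replicate 2 (adjusted p = 0.05), and that of Mobp without TBI replicate 1 or 3 (adjusted p = 0.084 and 0.069). The part of these cells in the rise of Capn2, Casp1 and Casp4 was not tested.

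The genes whose levels most resembled each raised member over the 14 arrays were listed as a description. For Capn2 they were Flot1 (Pearson r = 0.983), Rpl3 (0.98) and Rarres2 (0.978). For Casp1 they were Ly86 (0.969), Ube2t (0.967) and Nrm (0.966). For Casp4 they were Psmb9 (0.97), Plekha4 (0.97) and Cp (0.969). The 14 points fall into groups, share 3 slides and include the groups in which these genes rose, so no p-value is given.

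Against TBI alone, no antidepressant changed a member past the threshold. In limma's test 0 of the 10 probes were called with imipramine, with Prozac and with Zoloft, where 2.85%, 0.00577% and 1.38% of all tested probes were called. The lowest adjusted p-values were 0.11, 0.587 and 0.13. At an unadjusted p under 0.05 the counts were 4, 0 and 4, against 19.7%, 10.1% and 15.2% of all tested probes. The methods' t-test, at its unadjusted threshold with a fold limit of 1.2, gave 4, 0 and 3, and 0 in each after Benjamini-Hochberg adjustment. Drug and TBI values did not overlap for 4, 0 and 5 probes, against 25.8%, 15.1% and 15.3% of all tested probes. The 3 comparisons share the 3 TBI arrays.

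The lowest p-values were at Bcl2l1 and Cast. On Bcl2l1 probe A_64_P054735, the TBI+Imipramine arrays measured 0.85, 0.92 and 0.82, TBI+Prozac 0.56, 0.60 and 0.67 and TBI+Zoloft 0.89, 0.88 and 1.01, where TBI had 0.33, 0.66 and 0.62. All imipramine and Zoloft arrays lay above the TBI arrays, whereas the Prozac arrays overlapped them, with 1 of the 3 just above the highest. The differences from TBI were 0.32 with imipramine (95% CI 0.07 to 0.58), 0.07 with Prozac (-0.19 to 0.33) and 0.38 with Zoloft (0.13 to 0.64), with limma adjusted p-values of 0.162, 0.869 and 0.13. There were 4 scalings of the arrays that called this Zoloft difference: quantile normalization, the percentile of all probes, the authors' series table and centring on medians gave 0.33 to 0.38 with adjusted p-values of 0.038 to 0.044. With the slide as a fixed block the differences were 0.25 with imipramine (95% CI -0.24 to 0.74) and 0.31 with Zoloft (-0.18 to 0.80).

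The other Bcl2l1 probe, A_64_P008047, gave differences of 0.41 with imipramine, 0.17 with Prozac and 0.43 with Zoloft (limma adjusted p = 0.13, 0.7 and 0.139). With imipramine the median of all tested probes was itself 0.20 higher than in TBI, with Prozac 0.15 higher and with Zoloft 0.01 higher. Relative to that median the differences on this probe were 0.21, 0.02 and 0.41. With the slide as a fixed block they were 0.57, 0.28 and 0.59, with adjusted p-values of 0.772, 0.912 and 0.998; this fit compares the slides through the Prozac arrays alone.

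On Cast probe A_64_P040361 the TBI+Imipramine arrays measured -0.29, -0.28 and -0.48, TBI+Prozac -0.82, -0.90 and -0.45 and TBI+Zoloft -0.26, -0.63 and -0.57. The imipramine and Zoloft arrays lay above all TBI arrays. The differences from TBI were 0.55, 0.17 and 0.41 (limma adjusted p = 0.11, 0.763 and 0.264). The other Cast probe gave 0.36, 0.11 and -0.22, so that with Zoloft the probes again pointed opposite ways. Casp4 was the other gene whose Zoloft arrays lay above all TBI arrays.

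**Figure D5:**
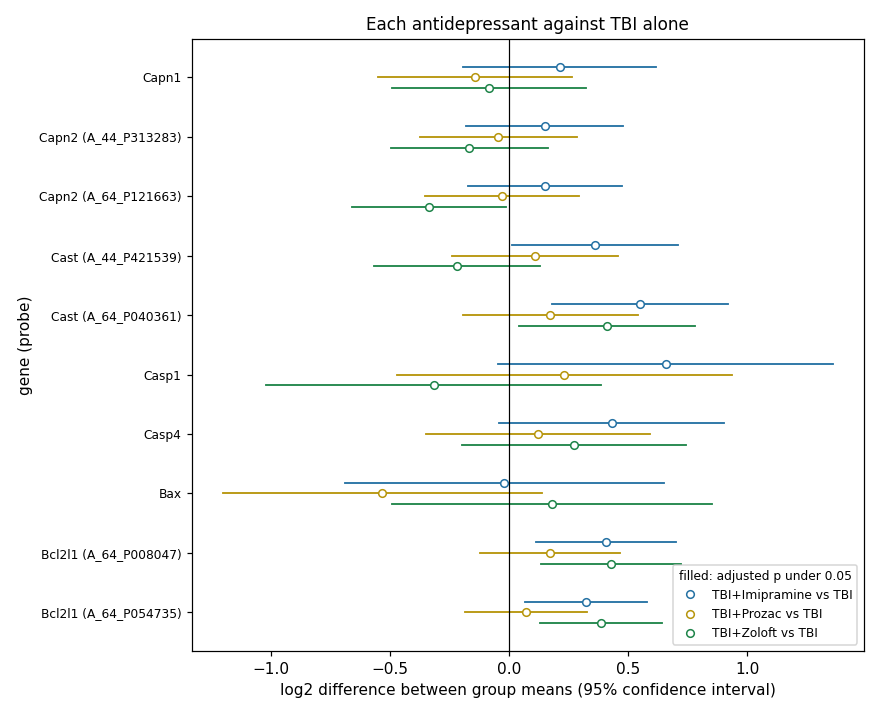
Log2 difference of each antidepressant group from TBI (horizontal axis) for the 10 tested member probes, with 95% confidence intervals from limma. No point is filled, since none had an adjusted p under 0.05, and the widest intervals are those of Casp1 and Bax.

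For the members that rose in TBI, differences between drug and TBI groups ran in both directions and none was called. Capn2 on probe A_44_P313283 measured 0.99, 1.02 and 0.77 with imipramine, 0.71, 0.58 and 0.90 with Prozac and 0.72, 0.45 and 0.66 with Zoloft. These overlap the TBI arrays in each group. The differences from TBI were 0.15 (95% CI -0.18 to 0.48), -0.05 (-0.38 to 0.28) and -0.17 (-0.50 to 0.16). On the second Capn2 probe the Zoloft arrays, at -1.61, -1.61 and -1.37, did lie below all TBI arrays, with a difference of -0.33 (95% CI -0.66 to -0.01, limma adjusted p = 0.309).

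Casp4 measured -1.18, -0.88 and -1.58 with imipramine, -1.28, -1.90 and -1.40 with Prozac and -1.48, -1.52 and -1.12 with Zoloft. The differences from TBI were 0.43 (95% CI -0.04 to 0.90), 0.12 (-0.35 to 0.59) and 0.27 (-0.20 to 0.74). Casp1 measured -2.70, -2.72 and -2.74 with imipramine, above all TBI arrays, and -3.49, -3.25 and -2.70 with Prozac. With Zoloft it measured -3.23, -3.45 and -4.40, where replicate 3 lay below every TBI array and below 1 Sham array. The differences from TBI were 0.66 (95% CI -0.05 to 1.36), 0.23 (-0.47 to 0.93) and -0.32 (-1.02 to 0.39).

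Bax measured -2.0, -1.22 and -1.17 with imipramine, -1.66, -2.65 and -1.61 with Prozac and -1.17, -1.61 and -1.0 with Zoloft. The differences from TBI were -0.02, -0.53 and 0.18 (limma adjusted p = 0.979, 0.587 and 0.844). Capn1 gave 0.21, -0.14 and -0.08 (limma adjusted p = 0.541, 0.826 and 0.883). TBI+Prozac replicate 1, the drug array on the slide of the TBI arrays, differed from the TBI mean by -0.22 at Bax, -0.16 at Capn1, 0.37 at Casp4 and -0.11 at Casp1.

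Of the 50 other pathway genes, 0 were called against TBI with any of the 3 drugs. With imipramine, Prozac and Zoloft 2.85%, 0.00577% and 1.38% of all tested probes were called. Capns1 gave 0.51 with imipramine, 0.44 with Prozac and -0.14 with Zoloft (limma adjusted p = 0.0622, 0.343 and 0.67). Mcl1 gave 0.54, 0.18 and 0.17 (limma adjusted p = 0.181, 0.805 and 0.76). Casp9 gave 0.24, 0.25 and 0.21 (limma adjusted p = 0.383, 0.598 and 0.569). The median difference of the 50 genes was 0.22 with imipramine, 0.07 with Prozac and -0.0049 with Zoloft, beside 0.20, 0.15 and 0.01 for all tested probes.

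Against Sham, Casp4 and Capn2 were called higher in each drug group, Capn2 with Zoloft on only 1 of its probes. With imipramine 5 of the 10 member probes were called, with Prozac 4 and with Zoloft 2, all higher, where 23.4%, 14.9% and 5.95% of all tested probes were called and 19.8%, 11.7% and 4.16% were called higher. Drug and Sham values did not overlap for 6, 6 and 3 probes, against 59.6%, 52.4% and 38.4% of all tested probes. These comparisons share the 2 Sham arrays with each other and with that of TBI. Casp4 rose by 1.99, 1.68 and 1.83 with imipramine, Prozac and Zoloft (SE 0.24 each, limma adjusted p = 2.77e-04, 0.00172 and 0.00151), with no overlap in any.

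Capn2 on probe A_44_P313283 rose by 1.04, 0.85 and 0.72 (limma adjusted p = 0.00146, 0.00789 and 0.0275). Under 3 of 10 other processing settings the Zoloft call was lost (limma adjusted p up to 0.081). The Zoloft call was lost without Sham replicate 1 (0.83, adjusted p = 0.095), Sham replicate 2 (0.62, adjusted p = 0.19), TBI+Zoloft replicate 1 (0.67, adjusted p = 0.068) or TBI+Zoloft replicate 3 (0.70, adjusted p = 0.056), and the Prozac call without Sham replicate 2 (0.74, adjusted p = 0.071). The second Capn2 probe rose by 0.98 with imipramine and 0.80 with Prozac (limma adjusted p = 0.00175 and 0.00928; for Prozac 0.70 and 0.083 without Sham replicate 2) and gave 0.50 with Zoloft (limma adjusted p = 0.101). This Zoloft difference was called under quantile normalization, the percentile of all probes, the series table and median centring (0.44 to 0.45, adjusted p = 0.037 to 0.045).

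Casp1 rose by 1.86 with imipramine and 1.43 with Prozac (limma adjusted p = 0.00371 and 0.0215) and gave 0.89 with Zoloft (limma adjusted p = 0.172). Without Sham replicate 1 the first was 1.32 (adjusted p = 0.053) and the second 0.89 (adjusted p = 0.21), and without TBI+Prozac replicate 3 the second was 1.21 (adjusted p = 0.072). The Prozac call was also lost under 1 of 10 other processing settings (limma adjusted p = 0.066). Without TBI+Zoloft replicate 3 the Zoloft difference was 1.24 and was called (adjusted p = 0.047).

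Cast on probe A_44_P421539 was called with imipramine alone, where it rose by 0.72 (SE 0.18, limma adjusted p = 0.0129), beside a rise of 0.18 in the median of all tested probes. The call was lost without Sham replicate 1 (0.65, adjusted p = 0.093), Sham replicate 2 (0.80, adjusted p = 0.05) or TBI+Imipramine replicate 2 (0.63, adjusted p = 0.057). The call was also lost under 1 of 10 other processing settings (limma adjusted p = 0.25). The other Cast probe gave 0.20 (limma adjusted p = 0.482). The Bcl2l1 probes were called against Sham in no drug group. Their differences from Sham were 0.03 and 0.05 with imipramine, -0.20 and -0.20 with Prozac and 0.05 and 0.12 with Zoloft, with limma adjusted p-values between 0.345 and 0.899.

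Of the 50 other pathway genes, 18 were called higher and 3 lower than Sham with imipramine, 16 and 2 with Prozac, and 11 and 2 with Zoloft. Of all tested probes 23.4%, 14.9% and 5.95% were called in that order, and 19.8%, 11.7% and 4.16% were called higher. The gene counts include genes such as Birc3, Bcl2a1, Bik, Il1b and Il1rn, with no Sham array above background. Such genes passed the filter only through injured groups, so nothing is concluded from their calls. Pycard rose by 1.74, 1.57 and 1.26 (limma adjusted p = 6.18e-04, 0.00229 and 0.0122). Il1b was at least 9.7-fold, 3.89-fold and 3.66-fold higher, with all drug arrays above background. Against either single Sham array, replicate 2 or 1, the Zoloft call of Il1b was lost (adjusted p = 0.079 and 0.058), and with normexp the Prozac and Zoloft calls were lost (0.65 and 0.72, adjusted p = 0.15 and 0.17). Gadd45a rose by 2.98, 2.57 and 2.41 (limma adjusted p = 3.36e-04, 0.00182 and 0.0038). Il1a, the other interleukin-1, went the other way: it was above background on both Sham arrays and on no drug array, and was at least 1.93-fold, 1.9-fold and 1.58-fold lower (limma adjusted p = 0.00996, 0.021 and 0.00814). Il1a passed the filter through the Sham arrays alone, the group where it was highest, so nothing is concluded from these calls.

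The 3 drugs did not differ from each other in any member past the threshold. Imipramine is a tricyclic antidepressant, and fluoxetine and sertraline are selective serotonin reuptake inhibitors. In limma's F test 0 of the 10 probes were called, where 3.18% of all tested probes were, and the lowest adjusted p was 0.112. At an unadjusted p under 0.05 the count was 4, against 22.5% of all tested probes. The pairwise comparisons, 3 for each of 10 probes with p-values adjusted over all tested probes, gave 0 calls too, where 0.00577%, 5.29% and 3.69% of all tested probes were called for Prozac against imipramine, Zoloft against imipramine and Zoloft against Prozac. At an unadjusted p under 0.05 the members gave 1, 3 and 2 in that order, against 6.91%, 23.6% and 21% of all tested probes. The arrays did not overlap for 2, 4 and 3 probes, against 17.3%, 29.8% and 25.6%.

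Zoloft lay lowest against imipramine at Casp1, Cast and Capn2. Zoloft minus imipramine was -0.97 at Casp1 (95% CI -1.68 to -0.27, limma adjusted p = 0.0907), -0.58 at Cast probe A_44_P421539 (-0.93 to -0.23, limma adjusted p = 0.0557) and -0.48 at Capn2 probe A_64_P121663 (-0.81 to -0.16, limma adjusted p = 0.0739). The arrays did not overlap at these probes nor at the other Capn2 probe. The median of all tested probes was itself 0.18 lower with Zoloft than with imipramine. Some cell type markers moved in the same contrast, in which 5.29% of all tested probes were called. The hippocampal subfield sum was 3.34 to 3.95 with Zoloft, 4.1 to 4.94 with imipramine and 5.09 to 5.43 with Prozac. Of the 5 tested subfield markers, Neurod6 was called lower with Zoloft than with imipramine (-0.52, limma adjusted p = 0.0282), and Neurod6 and Neurod1 lower than with Prozac (-0.65 and -1.03, limma adjusted p = 0.0178 and 0.0461). The 12 microglia and macrophage markers had a median of -0.48 for Zoloft minus imipramine, and 1 of them, Csf1r, was called lower (-0.79, limma adjusted p = 0.0379), as it was against Prozac (-0.84, limma adjusted p = 0.0382). The sums of the 12 overlapped, at 23.2 to 24.5 with Zoloft and 23.8 to 26.1 with imipramine. Of the neuronal and astrocyte markers 0 were called for Zoloft against imipramine, with medians of -0.01 and -0.04. The part of these cells in the Zoloft differences was not tested. Zoloft minus Prozac was largest at Bax, with 0.71 (95% CI 0.04 to 1.38, limma adjusted p = 0.21). Prozac minus imipramine was negative at all 10 probes, between -0.51 and -0.18, beside -0.06 for the median of all tested probes, and none had an adjusted p under 0.723. For fluoxetine and sertraline, the compounds of the same class, Zoloft minus Prozac was -0.55 at Casp1 (95% CI -1.25 to 0.15), 0.15 at Casp4 (-0.32 to 0.62) and 0.06 at Capn1 (-0.35 to 0.46). It was -0.12 (-0.45 to 0.21) and -0.30 (-0.63 to 0.02) on the Capn2 probes and -0.33 (-0.68 to 0.02) and 0.24 (-0.13 to 0.61) on the Cast probes. On the Bcl2l1 probes it was 0.26 (-0.04 to 0.55) and 0.31 (0.06 to 0.57), with no overlap of the arrays on either (limma adjusted p = 0.307 and 0.15).

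Outside the members, 1 of the 50 pathway genes was called in limma's F test, where 3.18% of all tested probes were. This gene was Capns1 (limma F test, adjusted p = 0.0356). Its differences were -0.66 for Zoloft minus imipramine (SE 0.13, limma adjusted p = 0.0232) and -0.59 for Zoloft minus Prozac (SE 0.13, limma adjusted p = 0.038). The F test call was lost without imipramine replicate 1 or 2, Prozac replicate 1 or 2, or any 1 of the Zoloft arrays, with adjusted p-values of 0.06 to 0.17, the highest without Zoloft replicate 2, and under 8 of 12 other processing settings (adjusted p up to 0.12). The call against imipramine was lost under 7 of 12 settings and without imipramine replicate 1 or 2 or Zoloft replicate 2 (adjusted p = 0.12, 0.12 and 0.096). That against Prozac was lost under 8 of 12 settings and with each of the 6 arrays left out (adjusted p = 0.052 to 0.14). Bcl2a1 and Nlrp3 were called lower with Zoloft than with imipramine, by -1.69 and -0.79 (limma adjusted p = 0.0315 and 0.0435). Nlrp3, an inflammasome sensor, was above background on all 3 imipramine arrays and on no Zoloft array, and was at least 1.35-fold higher with imipramine. Nlrp3 passed the filter through the imipramine arrays alone, the group where it was highest, so nothing is concluded from its call. Both calls were lost without imipramine replicate 1 or 2 or Zoloft replicate 2 or 3, with adjusted p-values of 0.075 to 0.16 for Bcl2a1 and 0.092 to 0.19 for Nlrp3, and that of Nlrp3 also without imipramine replicate 3 (adjusted p = 0.065). Under other settings each lost its call in 8 of 11, and with normexp the Nlrp3 difference was 0.0774 (adjusted p = 0.77).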

How the data were processed

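Hippocampal RNA of 14 rats was measured on one-colour Agilent rat arrays, each labelled with its group and replicate. The authors extracted spot intensity with Agilent Feature Extraction (version 11.5.1.1 per the file headers) and deposited the scanner output together with a series table of linear intensity values. The files also hold deposited flags of other kinds (above background, saturated, outlier). From the processed intensity, control and outlier spots were removed and the spots of a probe were averaged. Each array was then scaled by the 75th percentile over its detected probes, and log2 was taken. Probes detected by all arrays of 1 group or more were tested (17322 of 30367) with limma 3.58.1 in R 4.3.3, all 5 groups in 1 fit without covariates, with Benjamini-Hochberg adjustment and a threshold of 0.05. The p-values measure the spread between these 14 samples. Accessions were matched to symbols through RefSeq's GRCr8 table for 18643 probes. Member genes were named with all their probes, and pathway genes by their brightest probe and the test's result. The members, gene lists and tests were chosen with earlier results of these data known. The series' other arrays were not analysed here. Some genes of the pathway lists are not reported here. The mean signal column was not used here, so the normexp alternative took the median signal with an offset of 50. Same-numbered samples did not deviate together (26 pairs, r from -0.23 to 0.23, 2 over 0.1), so numbers did not pair samples. The fitting was tested on simulated data.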

Additional observations from a re-analysis of the deposited data

Results flagged for a closer look

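The limma F test among the drug groups was run on all tested members, pathway genes and markers, and 3.18% of all tested probes were called in it. Called were 1 of 50 other pathway genes, 1 of 12 microglia and macrophage markers and 1 of 5 subfield markers. These counts were not tested against that share. The differences of 3 genes among the drug groups were marked because a test of the difference itself passed the threshold. They are Capns1, the shared small calpain subunit (limma F test, adjusted p = 0.036), Csf1r, a microglia and macrophage marker (limma F test, adjusted p = 0.045), and Neurod6, a marker of hippocampal subfields (limma F test, adjusted p = 0.023), all with their lowest levels with Zoloft. The call of Capns1 was lost under 8 of 12 other settings and with 7 of 9 drug arrays left out, that of Csf1r under 9 of 12 and with 8 of 9, and that of Neurod6 under 8 of 12 and with 7 of 9, with adjusted p-values up to 0.17 for Capns1, 0.14 for Csf1r and 0.11 for Neurod6. The pairwise calls of Csf1r and Neurod6 for Zoloft against imipramine were lost without imipramine replicate 1 or 2 or Zoloft replicate 2 or 3 (adjusted p = 0.071 to 0.17 and 0.061 to 0.15). For Zoloft against Prozac, the call of Csf1r was lost under 9 of 12 other settings and with 5 of 6 arrays left out. That of Neurod6 was lost under 6 of 12 and with 4 of 6. Groups of 2 or 3 arrays were too small for a search for outlying arrays.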

How the results depend on the processing

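Of 70 member differences from TBI or Sham, 15 were called and 6 of these kept call and direction under all alternatives and left-out arrays; of the 55 not called, 45 stayed so throughout and 23 changed sign somewhere without a call. The number of member probes called in TBI against Sham was 7 with the 75th percentile over all probes, 7 with median centring (chosen after seeing the data), 0 with the methods' t-test after Benjamini-Hochberg adjustment, and 2 to 3 with 1 array left out (2 without Sham replicate 2). For Zoloft against TBI it was 1 under quantile normalization, the percentile over all probes, the series table and median centring, and 3 with the methods' t-test unadjusted, which gave 4 for imipramine against TBI. Against Sham, the t-test after adjustment gave 0 for each drug; imipramine gave 3 to 6 (3 without Sham replicate 1) and Prozac 2 to 4 (2 without Sham replicate 2) with 1 array left out, Prozac 7 under median centring, and Zoloft 3 under quantile normalization, the percentile over all probes, the series table and median centring, 1 with normexp, 1 without a filter on dim probes and 1 to 2 with 1 array left out (1 without either Sham array or Zoloft replicate 1). The replicate block gave 1 for Zoloft against Sham and 3 for TBI against Sham, where Casp1 was lost (adjusted p = 0.062), in samples that share no more than a number. Under normexp Casp1 in TBI against Sham was 0.54 (adjusted p = 0.13), Bik in Prozac against Sham was -0.0607, and Nlrp3 in Zoloft against imipramine was 0.0774; the cause was not tested. Calls over all probes in TBI against Sham numbered 2879, and 4467 under quantile normalization, 4446 with the percentile over all probes, 4392 with the series table, 4415 with median centring and 1916 without the filter. The number of arrays limits the precision, and Casp8 and Bcl2 lie below background.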
